A study of Rattus norvegicus with 20 samples.

Results

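The levels of 4 genes of the actin family were followed in rats, in a skeletal muscle, the gastrocnemius, and in white adipose tissue of the abdomen. They were chosen by Ensembl identifier as Acta1 (ENSRNOG00000017786, skeletal), Actc1 (ENSRNOG00000008536, cardiac), Acta2 (ENSRNOG00000058039, smooth muscle) and Actb (ENSRNOG00000034254, cytoplasmic). All 4 were found among the 32883 genes of the table, and all 4 were among the 13806 genes that passed the filter on low counts. The 2 groups are 10 libraries of gastrocnemius, a calf muscle of the hind limb, and 10 libraries of adipose tissue. Both groups come from the same 10 Fischer 344 x Brown Norway rats, obtained at 8 months of age, with no treatment or genetic change named in the labels. The design text describes 5 males and 5 females whereas every sample label says male, so the sexes were not compared.

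Actins are small globular proteins that polymerise into filaments. In striated muscle the thin filaments of the sarcomere, along which myosin pulls, are built from the skeletal isoform Acta1 and the cardiac isoform Actc1, the latter being the main actin of the heart and of developing skeletal muscle. Acta2 forms the contractile filaments of vascular smooth muscle and is also made by pericytes and myofibroblasts, and Actb is a component of the cytoskeleton of nearly every cell. Transcription of the muscle actins is known to depend on serum response factor, which binds CArG boxes, and in skeletal muscle the cardiac isoform is largely replaced by the skeletal one after birth.

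The promoters are shown because the 3 muscle actins are known targets of the same factor and differ in where their counts were found. RefSeq promoters, each reaching from 250 bases before to 50 bases after the annotated gene start, were matched by symbol for 3 of the 4 actins (Acta1, Actc1 and Acta2). In build GRCr8, Acta1 lies at chr19:68784145-68784444, Actc1 at chr3:121271778-121272077 and Acta2 at chr1:241172454-241172753, all on the minus strand. The sequences run 5′ to 3′ along the gene, and capitals mark CArG boxes, 10-base motifs of CC, a core of 6 bases and GG, in which at most 1 core base is G or C and the others are A or T.
Acta1: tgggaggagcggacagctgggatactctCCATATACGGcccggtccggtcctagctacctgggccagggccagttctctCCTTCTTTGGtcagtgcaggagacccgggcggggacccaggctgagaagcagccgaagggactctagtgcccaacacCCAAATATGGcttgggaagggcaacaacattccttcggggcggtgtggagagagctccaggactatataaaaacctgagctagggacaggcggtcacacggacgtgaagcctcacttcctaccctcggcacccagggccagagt
Actc1: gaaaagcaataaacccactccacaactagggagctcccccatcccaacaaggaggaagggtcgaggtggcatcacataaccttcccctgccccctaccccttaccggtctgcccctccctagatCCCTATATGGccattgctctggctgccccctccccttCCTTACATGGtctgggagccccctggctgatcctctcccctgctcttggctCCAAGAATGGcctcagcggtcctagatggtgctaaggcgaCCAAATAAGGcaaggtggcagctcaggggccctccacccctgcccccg
Acta2: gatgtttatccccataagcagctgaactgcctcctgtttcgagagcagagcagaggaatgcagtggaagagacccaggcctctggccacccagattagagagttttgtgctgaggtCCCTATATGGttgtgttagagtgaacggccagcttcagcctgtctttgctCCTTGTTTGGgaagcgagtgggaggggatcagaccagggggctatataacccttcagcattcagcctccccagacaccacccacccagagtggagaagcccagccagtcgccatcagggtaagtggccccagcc

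A CArG box with only A and T in its core was found in Acta1, as CCAAATATGG starting 94 bases before the gene start, and in Actc1, as CCAAATAAGG just after the start. Of 33469 promoters of the same length in the table, 1.64% hold such a box on either strand. With 1 G or C in the core, Acta1 held another 2 boxes, Actc1 another 3 and Acta2 its 2, whereas 8.10% of all promoters hold such a box and 0.846% hold at least 2 of either kind. Acta2 and Actc1 share the box CCCTATATGG, which starts 134 and 126 bases before their gene starts. The letters TATAAA, searched on both strands and present in 14.2% of promoters, were found in the window of Acta1, 29 bases before the start. Variants of these letters were not searched, so the windows of Actc1 and Acta2 were not checked for them. These matches describe the letters in the windows, and binding was not measured.

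The muscle libraries held 8446753 to 20141854 counts each, and the adipose libraries 11067755 to 25904309. Levels are given as CPM, which are counts scaled to 1000000 per library, after adjustment by trimmed mean of M values (TMM). TMM gives each library a single scale factor, on the assumption that most genes do not differ between libraries. After it, 79.8% of the genes tested were called different between the tissues, so levels compared across tissues depend on that assumption. TMM factors were 0.560 to 0.747 in muscle and 1.21 to 1.98 in adipose tissue, so that scaling by library totals alone shifted the median log2 difference of all genes by −1.30 towards adipose tissue. With TMM scaling 47.1% of the genes called different were higher in muscle, and with library totals 14.2%. Adipose libraries 1, 3 and 5 held much more Acta1 than the other 7, adipose library 4 more Acta2, and muscle library 2 more Actc1. The counts are not divided by transcript length, so they compare libraries and not molar amounts of different genes.

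In muscle nearly all counts of the 4 actins were those of Acta1, and in adipose tissue most were those of Actb. Together the 4 actins took 5.26% ± 0.540 (SD, n = 10) of all counts in muscle, from 4.52% to 5.98%. In adipose tissue they took 0.342% ± 0.118 (SD, n = 10), from 0.248% to 0.658%, with library 4 highest. The 2 ranges did not overlap.

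Shares are of the summed counts of these 4 genes, and other actin genes were not included. Acta1 took 99.4% ± 0.164 (SD, n = 10) of this sum in muscle, Actb 0.463% ± 0.0524, Acta2 0.0792% ± 0.0295 and Actc1 0.0579% ± 0.114. Without muscle library 2 the share of Actc1 was 0.0229% ± 0.0288 (SD, n = 9) and that of Acta2 0.0725% ± 0.0219. Within a library Acta2 had more counts than Actc1 in 9 of 10 muscle libraries, with library 2 the exception, while the range of Actc1 (0.00348% to 0.373%) covered that of Acta2 (0.0510% to 0.139%). In adipose tissue Actb took 86.0% ± 11.7 (SD, n = 10), Acta2 8.98% ± 9.81 and Acta1 5.02% ± 8.15, and Actc1 took 0.000620% ± 0.00122. The large spreads of Acta1 and Acta2 came with 4 libraries: Acta1 took 18.0% in library 1, 22.2% in library 3 and 5.27% in library 5, and Acta2 took 36.6% in library 4. In the other 6 adipose libraries Actb took 93.5% ± 1.80 (SD, n = 6), Acta2 5.86% ± 1.68 and Acta1 0.637% ± 0.306, an order that held in each of them.

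**Figure D1:**
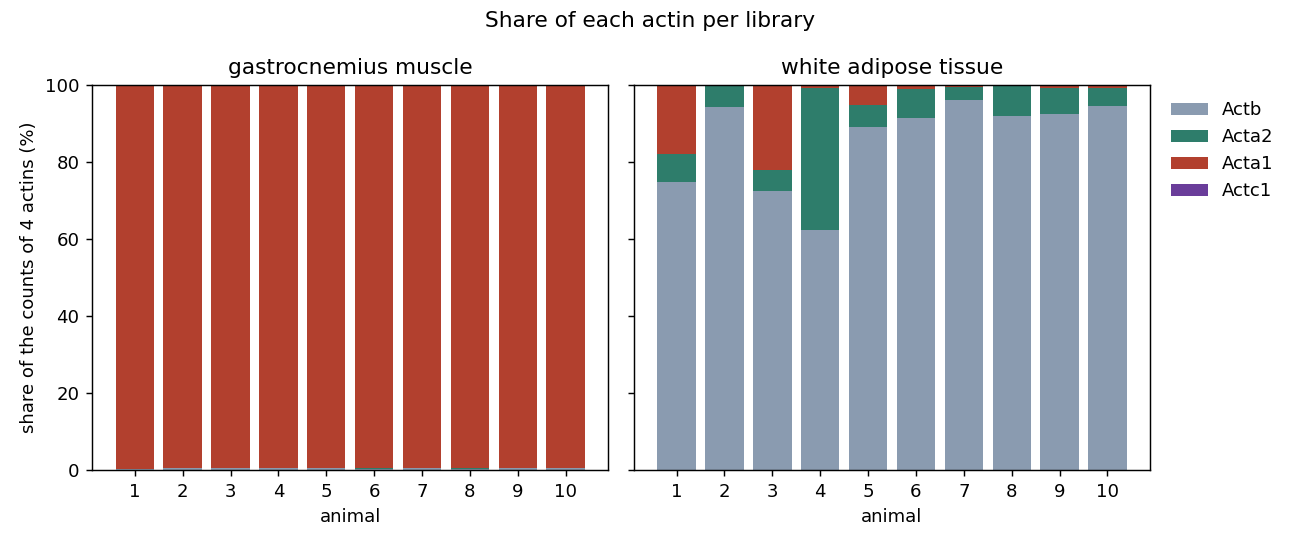
Share of each actin in the summed counts of the 4 actins (y axis, percent) in every library (x axis, animals 1 to 10 of each tissue). Muscle bars are almost wholly Acta1 (99.4% on average), while adipose bars are mostly Actb, with Acta1 visible in libraries 1, 3 and 5 and Acta2 at 36.6% in library 4.

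Between the tissues, Acta1 and Actc1 were higher in muscle and Acta2 and Actb higher in adipose tissue in each of the 10 animals. Because the members were selected on this contrast, its differences are a description without a test. Of all genes tested, 79.8% were called different between the tissues and 45.5% had libraries that did not overlap. Acta1, Actc1 and Actb did not overlap between the tissues, Acta2 overlapped with TMM scaling but not with library totals, and nothing is read from these counts.

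**Figure D2:**
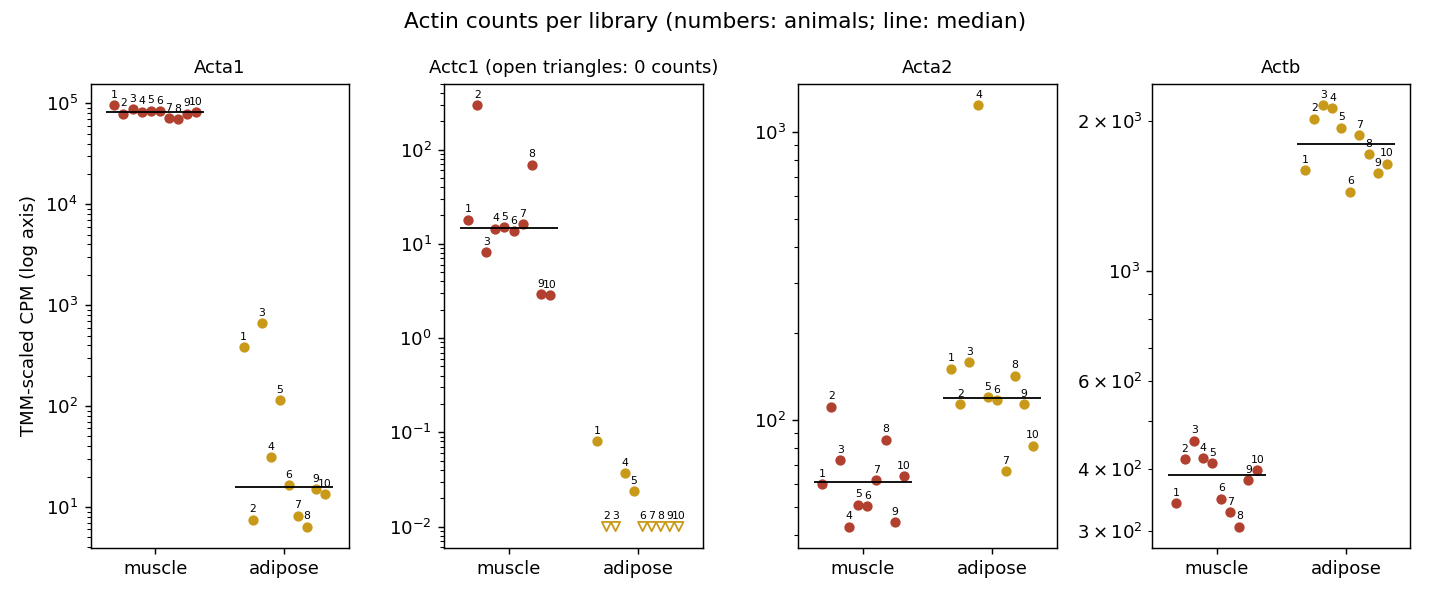
TMM-scaled CPM (y axes, log scale) of the 4 actins in the 10 muscle and 10 adipose libraries, with animal numbers at the points, medians as lines and 0 counts as open triangles at the foot of the Actc1 panel. Acta1 and Actc1 lie higher in muscle and Actb in adipose tissue without overlap, and single libraries stand apart for Actc1 (muscle 2, 299 CPM) and Acta2 (adipose 4, 1243 CPM).

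Acta1, the actin of the adult skeletal thin filament, had the most counts of the 4 in muscle and the smallest spread between animals there. Its level in muscle was 70306 CPM at the lowest (animal 8), 82665 at the median and 97123 at the highest (animal 1). In adipose tissue it was 6.39 CPM at the lowest (animal 8), 15.8 at the median and 661 at the highest (animal 3). Libraries 1, 3 and 5 held 383, 661 and 114 CPM and library 4 held 31.0, whereas the other 6 lay between 6.39 and 16.6. The difference within an animal, muscle minus adipose tissue on the log2 CPM scale, averaged 11.30 (SD 2.30, n = 10) and ran from 7.06 in animal 3 to 13.40 in animal 8.

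Adipose library 3 thus held Acta1 at 0.806% of the muscle mean, library 1 at 0.468% and library 5 at 0.140%, while the other 7 held 0.00780% to 0.0378%. By library totals these 3 values were 1.52%, 1.20% and 0.356%. The SD of Acta1 between animals was 0.138 log2 units in muscle, at the 4.9th percentile of all genes tested, and 2.41 in adipose tissue, at the 99.9th. In muscle only 3 genes, Acta1 included, lay within 1 log2 unit of its mean, so its spread could hardly be compared at a similar level. The median gene had an SD of 0.355 in muscle and 0.406 in adipose tissue. The edgeR log2 fold change, which compares group means, was 9.35 (SE 1.07), and 12.58 without adipose libraries 1, 3 and 5. With the animal as a block it was 11.57 and with library totals 8.20. DESeq2 gave 3.39 with replacement of outlying counts and 9.37 without it. The 3.39 lies below the difference within every animal, of which the smallest was 7.06, so it describes none of them.

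Across the 10 adipose libraries, 12 of 13805 other genes (0.0869%) were correlated with Acta1 at a Benjamini-Hochberg adjusted p below 0.05 in the permutation test of Pearson's r. Of these, 11 were correlated positively and 1 negatively. All 11 were at least 8-fold higher in muscle than in adipose tissue, as were 5.84% of all genes tested, and whether RNA of muscle in these samples had a part was not tested. By Spearman's rho 0 genes were called. Without libraries 1, 3 and 5 the count was 0, with 1130 at an unadjusted p below 0.05, but with 7 libraries the smallest exact p is 0.000198 and 55 genes at that p would be needed for a call. Without library 4 the count was 39. In muscle 0 genes were called by either coefficient and 1854 had an unadjusted Pearson p below 0.05. The gene with the most similar pattern to Acta1 in muscle was ENSRNOG00000054609, with r = 0.965 over 10 animals.

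Actc1, the cardiac isoform, was a minor actin in this muscle and varied most between animals. Its levels in muscle were 18.0, 299, 8.13, 14.5, 14.9, 13.6, 16.1, 69.1, 2.90 and 2.86 CPM in animals 1 to 10. Animals 2 and 8 stood above the others, animals 9 and 10 below, and the remaining 6 lay between 8.13 and 18.0. The SD was 1.97 log2 units, at the 99.6th percentile of all genes tested in muscle. Animal 2 exceeded the next animal by 2.11 log2 units, a gap that ranked 21st among the highest-to-next gaps of 13806 genes. Muscle library 2 was the highest library for 3442 genes and exceeded the next by at least 1 log2 unit for 291 of them.

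For every 1000000 Acta1 counts, Actc1 had 35.0 counts in the muscle of animal 10, a median of 175 over the 10 animals, 983 in animal 8 and 3770 in animal 2. The highest ratio was 108 times the lowest. Such a ratio within a library does not depend on the scaling between libraries, and animal 2 was highest by either measure. Reads of near-identical actin genes may have been shared or dropped, and how they were treated is not given in the sources used here. In muscle, 1 of 10 Acta1 counts, 0 of 10 Actc1 counts, 1 of 10 Acta2 counts and 0 of 10 Actb counts were whole within 0.005, beside 25.3% of all values above 0 in the table. A count that is not whole does not show which genes its reads were shared with, and the table-wide percentage pools genes of all levels. These values therefore cannot decide whether reads were shared among the actins. The split of reads between these genes is uncertain because the treatment of such reads is not given.

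In adipose tissue Actc1 was counted 2 times in library 1, 1.2 times in library 4 and 1 time in library 5, and was at 0 in the other 7. A count of 0 allows up to 3 counts, or 0.271 CPM of the library total in the shallowest of these 7 libraries and 0.161 in the deepest. Over all libraries of a tissue, muscle held 5281 Actc1 counts and adipose tissue 4 after rounding. The ratio by library totals was 1264 (95% exact interval 493 to 4639, for counting error only). Without muscle library 2, muscle held 1607 Actc1 counts and the ratio was 428 (95% exact interval 167 to 1574). Without adipose libraries 1, 3 and 5 a single adipose count remained after rounding, and the ratio was 3344 (95% exact interval 600 to 132109). Libraries 1, 3 and 5 together held 3 Actc1 and 23138 Acta1 counts. At the lowest, the median and the highest muscle ratio of these genes, the same Acta1 counts would come with 0.810, 4.04 and 87.2 Actc1 counts. The highest ratio was that of animal 2. Per 1000000 Acta1 counts, muscle of animals 1, 3 and 5 had 186, 92.4 and 176 Actc1 counts. Whether RNA of muscle in these adipose samples had a part was not tested. In adipose library 4, the 1.2 Actc1 counts stood beside 834 Acta1 counts, which would come with 0.146 at the median ratio.

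**Figure D3:**
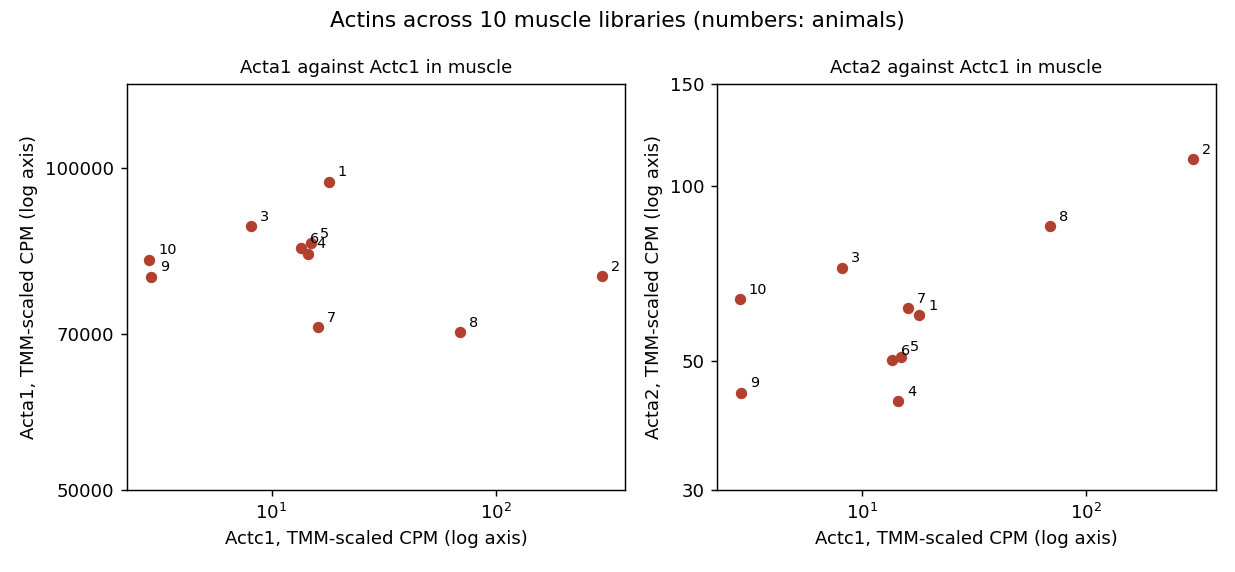
TMM-scaled CPM of Acta1 (left y axis) and Acta2 (right y axis) against that of Actc1 (x axes) in the 10 muscle libraries, on log axes, with animal numbers at the points. Animals 2 and 8 lie highest for Actc1 (299 and 69.1 CPM) and for Acta2 (111 and 85.4 CPM), whereas Acta1 spans only 70306 to 97123 CPM.

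Across the 10 muscle libraries, 854 of 13805 other genes (6.19%) were correlated with Actc1 at an adjusted p below 0.05 in the permutation test of Pearson's r, 453 positively and 401 negatively. Of the 453, 65 were at least 8-fold higher in muscle than in adipose tissue and 29 at least 8-fold higher in adipose tissue, beside 806 (5.84%) and 1236 (8.95%) of all 13806 genes tested. By Spearman's rho 0 genes were called. Without muscle library 2 the Pearson count was 0, with 1333 genes at an unadjusted p below 0.05. The gene most like Actc1 in muscle was ENSRNOG00000031890, which ranged from 5.62 to 70.5 CPM there (r = 0.978 over 10 animals, and 0.93 without animals 2 and 10). It was not alone, since 141 of 13805 other genes had an r of at least 0.9. Without animals 2 and 10 there were 32 such genes, and this gene ranked 8 by r.

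Acta2, the smooth muscle isoform, had the smallest mean difference between the tissues. Its level in muscle was 42.6 CPM at the lowest, 60.8 at the median and 111 at the highest, in animal 2. In adipose tissue it was 66.3 CPM at the lowest (animal 7), 119 at the median and 1243 at the highest, in animal 4, while the next library, of animal 3, held 159. The ranges of the tissues overlapped, and muscle of animals 2, 3 and 8 held 111, 72.4 and 85.4 CPM, more than the lowest adipose library. The difference within an animal averaged −1.24 log2 units (SD 1.37, n = 10), from −4.86 in animal 4 to −0.03 in animal 2.

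Without adipose library 4, Acta2 in adipose tissue averaged 118 CPM ± 30.5 (SD, n = 9), beside 231 ± 357 (SD, n = 10) with it. The edgeR log2 fold change of muscle over adipose tissue was −1.84 (SE 0.46) with this library, −0.88 without it and −1.13 with the animal as a block. In library 4 the gap of 2.96 log2 units to the next library ranked 70th among the gaps of 13806 genes, and 68th among the genes highest in that library. That library was the highest of the tissue for 2812 genes, of which 484 exceeded the next library by at least 1 log2 unit and 66 by at least 3. In bulk tissue, fewer cells of a type and less RNA per cell cannot be told apart. Markers of vascular and other cell types were not examined because the identifiers could not be paired with symbols.

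Over muscle libraries and over adipose libraries, 0 genes were correlated with Acta2 at an adjusted p below 0.05 by either coefficient. At an unadjusted Pearson p below 0.05 there were 3179 in muscle and 1597 in adipose tissue. With library totals 283 genes were called positively and 32 negatively in muscle. The gene most like Acta2 in adipose tissue was ENSRNOG00000017628, from 37.7 to 709 CPM (r = 0.986 over 10 animals, and 0.94 without animals 4 and 7). It was not alone, since 93 of 13805 other genes had an r of at least 0.9, and 9 without animals 4 and 7.

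Actb, the cytoplasmic isoform often used as a reference gene, was higher in adipose tissue by a nearly constant amount. Its level in muscle was 306 CPM at the lowest, 389 at the median and 456 at the highest. In adipose tissue it was 1442 CPM at the lowest, 1794 at the median and 2155 at the highest. The difference within an animal was −2.24 log2 units (SD 0.17, n = 10), from −2.51 in animal 7 to −2.04 in animal 10. By library totals it was −3.54 (SD 0.26, n = 10), so its size depends on the scaling but its direction does not.

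The SD of Actb between animals was 0.185 log2 units in muscle and 0.200 in adipose tissue, at the 13.5th and 10.5th percentiles of all genes tested. Genes of similar level were those within 1 log2 unit of its mean, Actb included. Among the 546 of these in muscle its SD was at percentile 26.2, and it was the smallest of the 41 in adipose tissue. Among the 4 actins only Actb was counted in every library of both tissues with an SD below that of the median gene in each. Per Actb count, muscle held 217 ± 28.3 (SD, n = 10) Acta1 counts, from 190 to 284, and adipose tissue 0.00370 to 0.307. Acta2 stood at 0.171 ± 0.0597 (SD, n = 10) per Actb count in muscle, and in adipose tissue at a median of 0.0732, from 0.0354 to 0.586 in library 4. The gene most like Actb in adipose tissue was ENSRNOG00000061160, a gene at a median of only 1.25 CPM there (r = 0.930 over 10 animals).

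Whether the 4 actins varied together between animals was computed in 12 relations, 6 within muscle, 3 within adipose tissue (Actc1 was too low there) and 3 between the tissues, each over 10 animals with permutation tests. None passed an adjusted p of 0.05. In muscle Actc1 and Acta2 had r = 0.72 (permutation p = 0.019, adjusted over all genes 0.109) and rho = 0.44 (permutation p = 0.204, adjusted 0.544). Without animals 2 and 10, the farthest from the median of Actc1, r was 0.63, and without muscle library 2 alone it was 0.43. Acta1 and Actb had r = 0.44 (permutation p = 0.201, adjusted 0.568) and rho = 0.45 in muscle. With library totals their r was 0.70 (permutation p = 0.0291, adjusted 0.348). Without animals 1 and 8 it was 0.72 (exact permutation p = 0.042, adjusted 0.578). Actc1 and Actb had r = −0.16 in muscle, −0.57 without muscle library 2 and 0.18 with library totals. Apart from Actc1 with Acta2 and Acta1 with Actb, the 4 pairs in muscle had r between −0.27 and −0.04. The 3 in adipose tissue had r between 0.19 and 0.42. In adipose tissue Acta1 and Acta2 had r = 0.19 and rho = 0.62, and r was 0.60 without library 4 and 0.70 without libraries 1, 3 and 5. Acta2 and Actb had r = 0.42 there, 0.08 without library 4 and 0.78 with library totals.

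Between the tissues of the same animal, the muscle and adipose levels of Acta1 had r = 0.82 (permutation p = 0.00244, adjusted 0.561) and rho = 0.92 (permutation p = 0.00045, adjusted 0.603). Of 13806 genes correlated in this way, 59 had a p at or below that of Acta1, 942 had an unadjusted p below 0.05, 0 were called by either coefficient, and the median r was 0.09. Without animals 1 and 8, the farthest in muscle, r was 0.73, and without adipose libraries 1, 3 and 5 it was 0.77. With library totals r was 0.60 (permutation p = 0.0725) and rho fell to 0.45 (permutation p = 0.19). Actb had r = 0.61 between the tissues (permutation p = 0.0599, adjusted 0.731) and rho = 0.67 (permutation p = 0.0381, adjusted 0.754). Without animals 7 and 8, the farthest in muscle, r was 0.90 (exact permutation p = 0.00159, adjusted 0.685), and with library totals it was 0.43. Acta2 had r = −0.36 (permutation p = 0.289, adjusted 0.842) and 0.13 without adipose library 4.

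**Figure D4:**
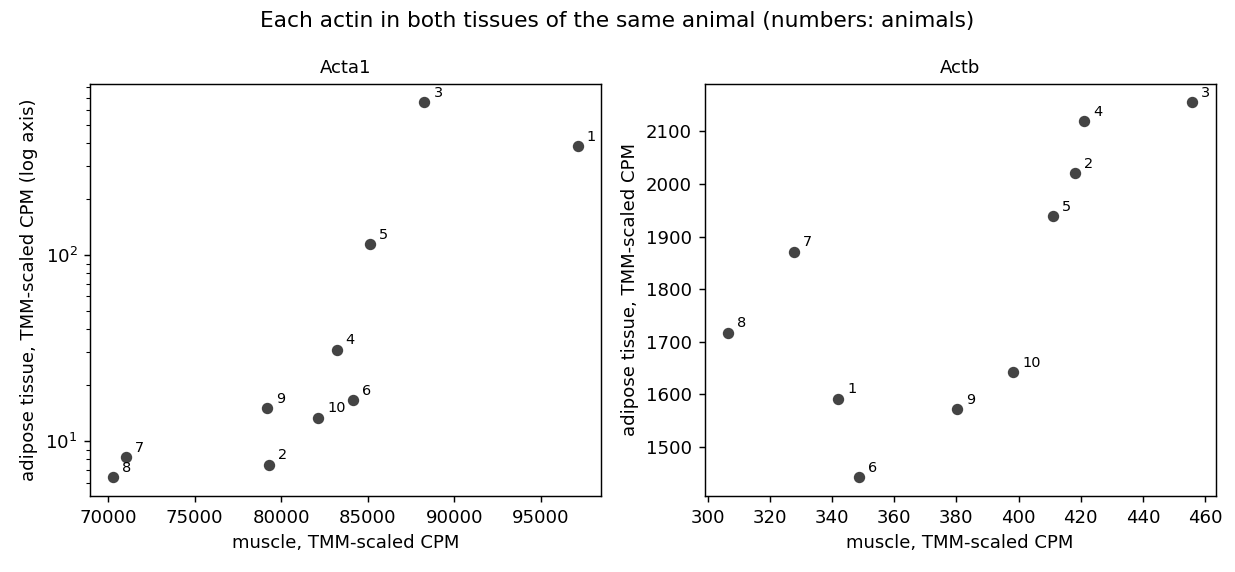
TMM-scaled CPM in adipose tissue (y axes, log scale for Acta1) against muscle (x axes) of the same animal for Acta1 and Actb, with animal numbers at the points. Animal 8 is lowest for Acta1 in both tissues (70306 and 6.39 CPM), and animal 3 is highest for Actb in both (456 and 2155 CPM).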

How the data were processed

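Poly(A) RNA of 20 libraries, 10 per tissue, was measured. The values deposited by the authors are expected counts, 1 row per gene, and need not be whole: 25.3% of those above 0 were whole within 0.005. Rounding preceded the count tests. Per the submitters' processing notes, bcl2fastq, STAR, featureCounts and the build rn6 were used. Their roles, their versions and how multi-mapping reads were handled are not given in the sources.

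The members and lists were chosen with earlier results of these data known. Symbols of the 4 actins come from the choice of members, since 0 identifiers matched a symbol in the reference tables. Lists of other actins, sarcomere, smooth muscle and actin turnover genes and cell type markers were therefore not run. The text names the members and the gene most like each, in muscle for Acta1 and Actc1 and in adipose tissue for Acta2 and Actb.

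In R 4.3.3, edgeR 4.0.16 filtered genes with filterByExpr, scaled libraries by TMM and fitted tissue with the robust quasi-likelihood test, adjusted by Benjamini-Hochberg over 13806 genes. Its fold changes of the members are descriptive. Log2 CPM used a prior count of 2. Correlations over animals used two-sided permutation tests with 100000 resamples (exact enumeration with 9 or fewer animals), adjusted over all genes tested. Both scripts were tested on simulated data. Alternatives covered scaling, filters, limma-voom 3.58.1, DESeq2 1.42.0, prior count, rounding, the animal block and libraries left out. Libraries with the same number come from 1 animal by their titles. Same-animal deviations over 8303 genes correlated at −0.22 to 0.42 (median 0.12), beside a median of −0.03 between different animals. The best match of a library was its own animal for 2 of 10 muscle and 2 of 10 adipose libraries. Intervals and floors cover counting error only.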

Additional observations from a re-analysis of the deposited data

Results flagged for a closer look

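Among 10 groups of 10 libraries checked for a value far from the others, 3 cases were found. Chance gives about 1 in 20 groups where values are normally distributed. Actc1 in adipose tissue had no count in most libraries, so the 3 cases cannot be weighed against that rate. Acta2 in adipose tissue was 10.28 log2 CPM in animal 4, where the next animal had 7.32. In the same library the 4 actins summed to 0.66% of the counts, beside 0.36% in the next. This sum holds the same Acta2 counts and is not a separate case. Actc1 in adipose tissue was −2.35 log2 CPM in animal 1, beside −2.71 in the next, a value that rests on 2 counts. The causes were not tested.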

How the results depend on the processing

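The direction of all 4 differences between muscle and adipose tissue was the same under every alternative run, while their size moved. The log2 fold change of Acta1 ranged from 3.39 (DESeq2 with replacement of outlying counts) to 12.58 (without adipose libraries 1, 3 and 5). Its lowest value, 3.39, lies below the smallest difference within an animal, 7.06. The range was 9.07 to 11.68 for Actc1, −3.29 to −0.82 for Acta2 and −3.55 to −2.16 for Actb. With the replicate block of animal, which pairs the libraries of a rat, 10990 genes were called beside 11011, and the fold changes were 11.57, 10.37, −1.13 and −2.24. Without the filter on low counts 13894 of 23140 genes were called. With library totals the correlations in muscle changed sign for Acta1 with Actc1 (0.21), Acta1 with Acta2 (0.24), Actc1 with Actb (0.18) and Acta2 with Actb (0.34). None was past the threshold on either scaling. Acta2 between tissues was 0.13 without adipose library 4, an alternative chosen after seeing the data, and 0.20 without the 2 animals farthest from the median. Of the 854 genes correlated with Actc1 in muscle, 0 were called without muscle library 2 and 0 without the 2 farthest animals. Of the 12 correlated with Acta1 in adipose tissue, 0 were called without libraries 1, 3 and 5 and 0 without the 2 farthest animals, and 39 without library 4. With 8 animals the smallest exact p is 2.48e-05 and 7 genes at that p are needed for a call, with 7 animals 0.000198 and 55. The Actc1 ratio with libraries left out and the box search with 1 G or C were also chosen after seeing the data. Shares per transcript length and protein identity were not run because no lengths or proteins were at hand. Actc1 in adipose tissue is limited by its depth of at most 2 counts per library.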
